A study of Mus musculus with 6 samples.

Results

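The cardiac and skeletal muscle genes described here are 10 of the 17973 mRNAs counted in mouse lung, 6 of them typical of heart muscle (Myh6, Myl7, Nppa, Actc1, Tnnt2 and Tnni3) and 4 of skeletal muscle (Acta1, Myh1, Ckm and Tnnt3). They were picked by symbol after their counts in these libraries had been seen, so their levels and their silicosis over control differences are given as a description, with no test. The silicosis group is 3 lungs of C57BL/6 mice given 8 mg of silica in 40 µL of saline into the trachea once, and the control group is 3 lungs of C57BL/6 mice that the series text describes as given sterile saline. Lungs were taken and frozen after 90 days. The silicosis libraries are called N129, N136 and N138 and the control libraries C7, C8 and C9, as in the labels. The labels state neither age nor sex, nor whether each library came from its own mouse, so p-values measure the spread between these libraries only.

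Striated muscle contracts by sliding thick filaments of myosin along thin filaments of actin, and troponin on the thin filament makes this depend on calcium. Heart and skeletal muscle use different genes for most of these proteins. In mice, heart muscle continues from the left atrium along the pulmonary veins into the lung as the myocardial sleeve, whereas skeletal muscle is not a regular part of lung tissue and lies next to it in the chest wall, the diaphragm and the oesophagus.

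The silicosis and control libraries held between 33698920 and 44000748 mRNA counts. Normalised levels below are CPM, that is, counts per 1000000 counts of the library. The lung epithelium markers, summed over 6 genes, were at 18092 to 22433 CPM in silicosis libraries and 24339 to 32254 CPM in control libraries. C9 stood apart from the other controls in Lars2, a mitochondrial leucyl-tRNA synthetase gene, with 606 CPM against 22.6 to 30.9 CPM in the other 5 libraries. The tables list no positions and the submitters' processing notes name GRCm39, so every coordinate and sequence here comes from the earlier build GRCm38.

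The results turn on telling the cardiac from the skeletal genes, and the closest pair is the cardiac actin Actc1 and the skeletal actin Acta1. Their coding sequences in GENCODE M21 are both 1134 bases long and differ at 157 bases, an identity of 86.2%. The longest run of identical bases was 29.

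In windows of 50 bases, 0% of the Actc1 transcript was found in any other gene's transcripts, and for Acta1 the share was 2.14%, with the pseudogene Gm47692. Myl7, Tnnt2, Tnni3 and Tnnt3 also shared 0%. The myosin heavy chains were less distinct, since Myh6 shared 22.6% of its windows with Myh7 and Myh1 shared 32.3%, mostly with its neighbour Myh2. Myh8 and Myh4, skeletal chains named below, shared 21.6% and 19% of their windows with other genes. Nppa shared 53% with the antisense gene Gm13054, and Ckm 11.5% with the antisense gene A930016O22Rik. Whether counting used strand is not stated. These partners had few counts, 4 to 8 in silicosis libraries and 2 to 19 in control libraries for Gm13054, and 0 to 5 in silicosis libraries and 3 to 9 in control libraries for A930016O22Rik.

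Serum response factor, a regulator of muscle genes, binds the CArG box, here searched on both strands as CC, 6 bases that are A or T, and GG. RefSeq promoter windows (GRCm38.p6, 250 bases upstream of the start) were found for 9 of the 10 genes. A CArG box was present in 3 of them, 2 cardiac and 1 skeletal, and in 1.47% of 32851 windows of all genes. The 3 windows are shown because both actins hold the motif and so cannot be told apart by it. They read 5′ to 3′ on the gene's strand, the minus strand in each case, with the motif in capitals.
Acta1 chr8:123894776-123895025: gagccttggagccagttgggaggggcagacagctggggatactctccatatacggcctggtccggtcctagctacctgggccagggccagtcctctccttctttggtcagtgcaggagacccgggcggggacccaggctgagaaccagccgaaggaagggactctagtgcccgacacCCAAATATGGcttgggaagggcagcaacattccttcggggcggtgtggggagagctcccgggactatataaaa
Actc1 chr2:114052876-114053125: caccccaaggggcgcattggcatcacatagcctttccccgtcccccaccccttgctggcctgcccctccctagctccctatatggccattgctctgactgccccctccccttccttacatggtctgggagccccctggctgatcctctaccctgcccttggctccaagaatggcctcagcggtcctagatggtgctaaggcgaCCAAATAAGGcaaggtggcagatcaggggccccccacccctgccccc
Myl7 chr11:5898783-5899032: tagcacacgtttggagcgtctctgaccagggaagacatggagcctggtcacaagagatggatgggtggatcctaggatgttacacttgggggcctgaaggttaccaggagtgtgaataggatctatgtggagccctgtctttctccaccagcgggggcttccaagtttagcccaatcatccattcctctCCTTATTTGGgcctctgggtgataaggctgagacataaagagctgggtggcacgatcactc

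The motif started 73 bases upstream in Acta1, 47 in Actc1 and 61 in Myl7. A match is a string of letters and was not measured as a binding site.

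The skeletal genes were highest in the same 2 silicosis libraries. Acta1, the actin of skeletal muscle thin filaments, had 14, 1650 and 2628 counts in N129, N136 and N138, against 6, 8 and 4 counts in C7, C8 and C9. On the normalised scale this was 0.365, 37.8 and 73.1 CPM in the silicosis libraries, against 0.149, 0.191 and 0.104 CPM in the controls. All 3 silicosis libraries lay above all 3 controls, but N129 was close to the controls and N136 was 104 times N129. The mean was 37.1 ± 36.4 CPM in silicosis and 0.148 ± 0.0435 CPM in control (SD, n = 3 each), and the log2 fold change was 7.93 (SE 1.61). Taking N136 and N138 out, an alternative chosen after the data were seen, left N129 alone against the controls and a log2 fold change of 1.27. In bulk RNA, more cells of a type and more RNA per cell cannot be told apart.

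Myh1 encodes the heavy chain of fast type IIx fibres. It had 0.0522, 10.9 and 21.8 CPM in N129, N136 and N138, against 0.348, 1.03 and 0.652 CPM in C7, C8 and C9. N129 held 2 counts, below every control, so the groups overlapped even though N136 and N138 were far above. The log2 fold change was 4.003 (SE 1.22) with all libraries and -3.63 with N129 alone against the controls.

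Ckm, the muscle creatine kinase that buffers ATP, had 1.23, 4.84 and 11.8 CPM in N129, N136 and N138, against 0.894, 0.814 and 2.92 CPM in C7, C8 and C9. Here C9 lay above N129, and C9 was 3.42 times the mean of C7 and C8. The log2 fold change was 1.95 (SE 0.75) with all libraries and -0.34 with N129 alone. Heart muscle also expresses Ckm, and C9 was the control with the highest cardiac genes other than Nppa. The part of heart muscle in the Ckm level was not tested.

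Tnnt3 encodes the fast skeletal form of troponin T, which anchors the troponin complex to tropomyosin. It had 2.504, 4.40 and 9.21 CPM in N129, N136 and N138, against 1.79, 1.96 and 2.43 CPM in C7, C8 and C9. The groups did not overlap, although N129 was only just above C9. The log2 fold change was 1.38 (SE 0.43), the smallest of the skeletal genes.

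All 4 skeletal genes were highest in N138 and second highest in N136. The ratio of N138 to N136 was 1.93 for Acta1, 2.0 for Myh1, 2.43 for Ckm and 2.09 for Tnnt3, so these genes kept similar proportions in both libraries. This ratio was not particular to them, since among the cardiac genes it ran from 1.34 for Myl7 to 2.77 for Tnni3. The ratio of Myh1 to Acta1 counts was 0.289 in N136 and 0.299 in N138. Summed over the 4 genes, N129, N136 and N138 held 4.15, 58.0 and 116 CPM, against 3.18, 3.997 and 6.11 CPM in C7, C8 and C9.

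**Figure D1:**
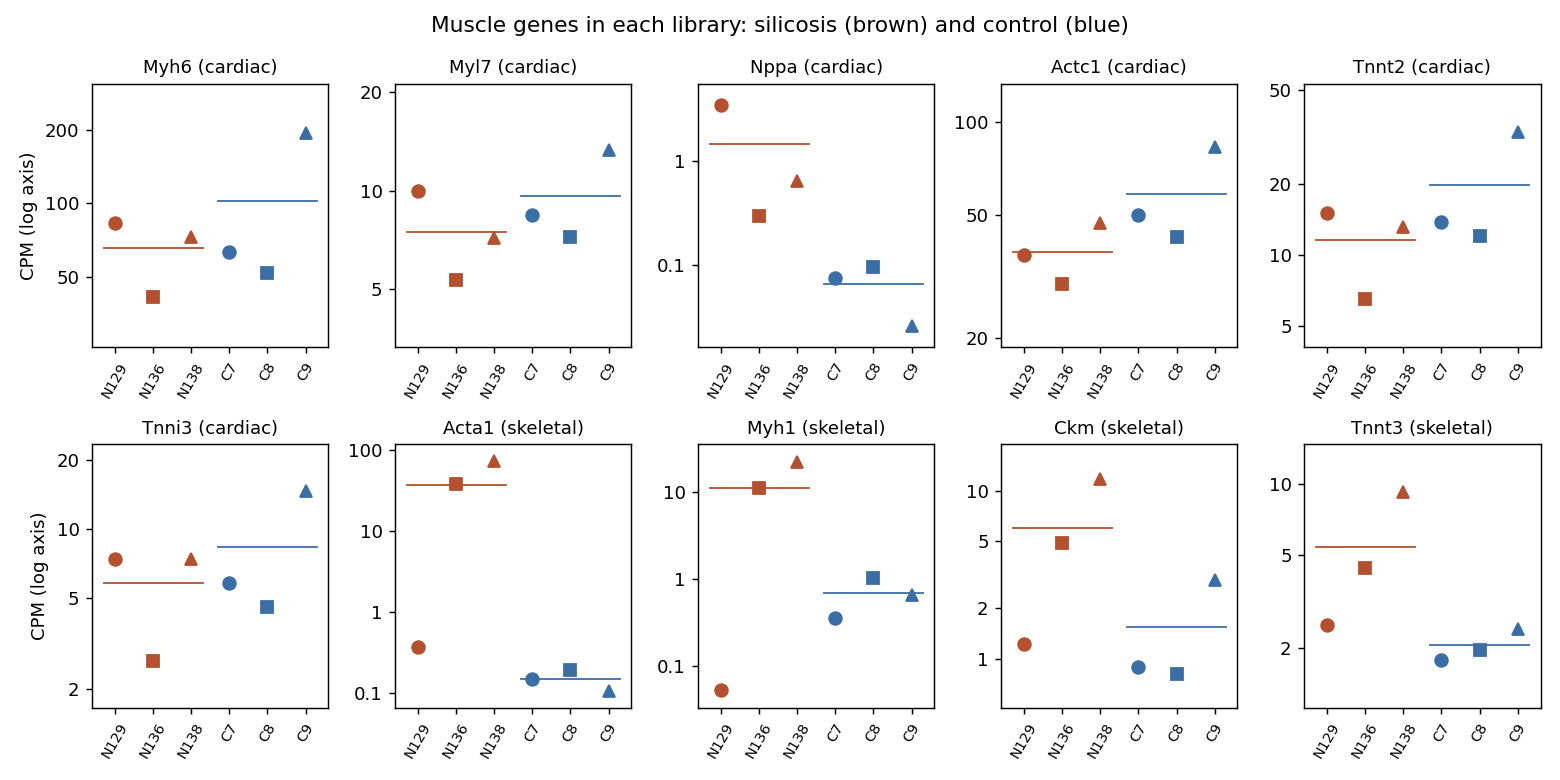
Normalised counts (CPM, log axis, a range of its own in each panel) of the 10 muscle genes in each silicosis (brown, left) and control (blue, right) library, with a line at each group's mean. Acta1 was at 37.8 CPM in N136 and 73.1 CPM in N138 but at 0.365 CPM in N129, while 5 of the 6 cardiac genes were highest in C9.

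The cardiac genes followed another order of libraries. Myh6, the alpha myosin heavy chain that is the main motor of the adult mouse heart, had 83.1, 41.3 and 72.8 CPM in N129, N136 and N138, against 63.0, 52.1 and 193 CPM in C7, C8 and C9. C9 was 3.36 times the mean of the other controls, and the other controls lay within the range of the silicosis libraries. The mean was 65.8 ± 21.8 CPM in silicosis and 103 ± 78.7 CPM in control (SD, n = 3 each). The log2 fold change was -0.65 (SE 0.46), and 0.19 without C9.

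Actc1, the cardiac actin, had 37.1, 29.8 and 47.1 CPM in N129, N136 and N138, against 50.1, 42.5 and 83.3 CPM in C7, C8 and C9. N138 lay above C8, so the groups overlapped, with N136 lowest and C9 highest. The log2 fold change was -0.63 (SE 0.25) here and -0.63 in the authors' deposited table. Myl7, the regulatory light chain of atrial myosin, had 9.94, 5.32 and 7.15 CPM in N129, N136 and N138, against 8.40, 7.23 and 13.3 CPM in C7, C8 and C9. N129 was the second highest library for Myl7 and N136 the lowest, and the log2 fold change was -0.37 (SE 0.28), or 0.034 with N129 alone against the controls.

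Tnnt2 and Tnni3 encode the cardiac forms of troponin T and of the inhibitory subunit troponin I. Tnnt2 had 15.2, 6.54 and 13.2 CPM in N129, N136 and N138, against 13.9, 12.1 and 33.4 CPM in C7, C8 and C9. Tnni3 had 7.41, 2.66 and 7.37 CPM in the same silicosis libraries, against 5.79, 4.57 and 14.6 CPM in the controls. Both were lowest in N136 and highest in C9, and the groups overlapped. Their log2 fold changes were -0.77 (SE 0.41) and -0.52 (SE 0.48), and that of Tnni3 was 0.16 without C9.

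Nppa encodes atrial natriuretic peptide, a hormone that atrial muscle releases on stretch. It had 133, 13 and 23 counts in N129, N136 and N138, against 3, 4 and 1 counts in C7, C8 and C9, or 3.47, 0.298 and 0.640 CPM against 0.0745, 0.0957 and 0.0261 CPM. The groups did not overlap, and Nppa was the only cardiac gene of the 6 that was highest in N129 and the only one that was lowest in C9. The log2 fold change was 4.40 (SE 1.04), from 1 to 4 counts per control library. Set against Myl7 in the same library, Nppa was at 0.349, 0.0560 and 0.0895 counts per Myl7 count in N129, N136 and N138, against 0.00888, 0.0133 and 0.00197 in C7, C8 and C9.

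Summed over the 6 cardiac genes, N129, N136 and N138 held 156, 85.9 and 148 CPM, against 141, 119 and 338 CPM in C7, C8 and C9. The silicosis mean was 130 ± 38.5 CPM and the control mean 199 ± 121 CPM (SD, n = 3 each), and the control mean was 131 CPM without C9. The ratio of Myh6 to Tnnt2 counts was between 5.49 and 6.32 in silicosis libraries and between 4.30 and 5.80 in control libraries. Other ratios varied more: Myh6 to Actc1 ran from 1.39 to 2.24 in silicosis libraries and from 1.23 to 2.32 in control libraries, and Myl7 to Tnnt2 from 0.542 to 0.814 in silicosis libraries and from 0.398 to 0.606 in control libraries. The library with the fewest cardiac counts, N136, was among the 2 with high skeletal counts, and N129 had cardiac counts near those of C7 with few skeletal ones.

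**Figure D2:**
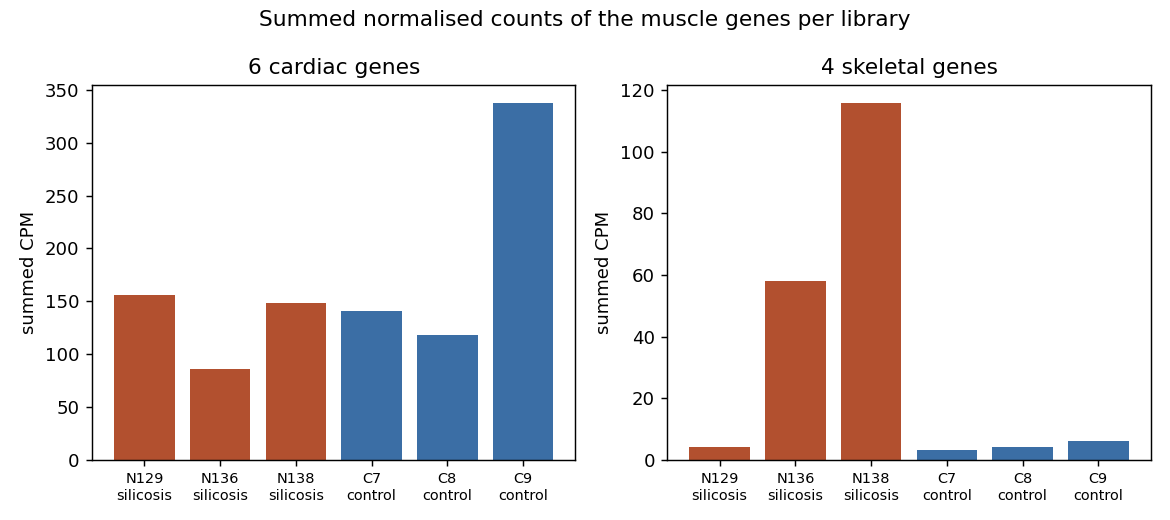
Summed normalised counts (CPM, axes from 0) of the 6 cardiac genes (left panel) and the 4 skeletal genes (right panel) in each silicosis (brown) and control (blue) library. The cardiac sum was highest in C9 at 338 CPM, and the skeletal sum was high in N138 at 116 CPM and N136 at 58.0 CPM.

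Levels of different genes were compared per kb of transcript. In silicosis libraries Actc1 was at 25.8 ± 5.91 CPM per kb and Acta1 at 25.7 ± 25.2, with N129 at 0.252 for Acta1. In control libraries Actc1 was at 39.8 ± 14.7 CPM per kb and Acta1 at 0.103 ± 0.0301. The next cardiac gene per kb was Myl7 in silicosis libraries, at 12.7 CPM per kb, and Myh6 in control libraries, at 16.8 CPM per kb, within the SD of Tnnt2 at 16.5 ± 9.83 and Myl7 at 16.3 ± 5.42. Myh1 was lowest of the 4 skeletal genes described in silicosis libraries at 1.80 ± 1.79 CPM per kb. Among fast and developmental skeletal myosins, Myh8, the perinatal chain, was at 0, 2.86 and 7.33 CPM per kb in N129, N136 and N138, above Myh1 at 1.80 and 3.59 in N136 and N138. Myh8 was at 0, 0.0311 and 0.00849 CPM per kb in C7, C8 and C9. Both chains share windows with other genes, and the part of shared sequence in these levels was not tested.

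By the edgeR quasi-likelihood test over all mRNAs, 15.3% of 15808 mRNAs were higher in silicosis and 16.5% lower at an adjusted p under 0.05. Of the 6 cardiac genes 1 passed as higher, Nppa, and 3 of the 4 skeletal genes passed as higher, Acta1, Myh1 and Tnnt3. These counts belong to the contrast the genes were picked on and are not support for a difference. Acta1 and Nppa reached the filter's minimum of 0.247 CPM in the silicosis libraries alone. The calls of all 4 genes ended under limma-voom, and those of Acta1 and Myh1 also with robust dispersions. With N129 alone against the controls the calls of Acta1, Myh1 and Tnnt3 ended. The call of Nppa also ended without C9, and those of Myh1 and Tnnt3 without any 1 of N136, N138, C7, C8 or C9. Actc1 was called lower by DESeq2.

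The other genes of the striated muscle lists were not picked for their own values, although the lists were written with earlier results of these data known. Of 20 other genes of the skeletal sarcomere, 11 passed the filter on low counts, 6 of these were higher by the edgeR test and the other 5 did not pass, with a median log2 fold change of 1.59 beside 0.025 over all tested mRNAs. The count was 13 without N129, 3 without N136, 2 without N138, 3 without C8, and 2 under limma-voom. Over all mRNAs, 2421 were higher with every library in and 1617 to 2580 with a single library left out. Neb, nebulin, the ruler of the thin filament, had 18.0, 22.9 and 44.0 CPM in N129, N136 and N138, against 7.01, 6.41 and 10.8 CPM in C7, C8 and C9 (log2 fold change 1.81, SE 0.33, adjusted p = 0.00366). Myl1, the fast alkali light chain, had 1.62, 4.33 and 6.59 CPM in the silicosis libraries, against 0.745, 0.335 and 0.574 CPM in the controls (log2 fold change 2.92, SE 0.53, adjusted p = 0.00348). All silicosis libraries lay above all controls for both, N129 included, and both calls held whichever single library was left out, though that of Myl1 ended with N129 alone against the controls.

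Tnni2, fast troponin I, Mybpc2, fast myosin binding protein C, Klhl41, a sarcomere assembly protein, and Mylk2, the skeletal myosin light chain kinase, are named because they were the other called genes of the list, after their values were seen. Their log2 fold changes were 1.45, 0.81, 1.66 and 2.16. The calls of Tnni2 and Mybpc2 ended without any 1 of N136, N138, C7, C8 or C9, that of Klhl41 without N138, C7, C8 or C9, and that of Mylk2 without N136, N138, C8 or C9. All 4 also ended under limma-voom and with N129 alone. Of the 20 genes, 9 lay above all 3 controls in N129, 17 in N136 and 19 in N138, beside 39.2%, 38.6% and 38.3% of all tested mRNAs. In N138 18 were highest, beside 2889 of 15808 tested mRNAs. The 20 include 9 genes that did not pass the filter, whereas the shares are of mRNAs that did, so the sets are unlike.

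The filter, which asks for counts in at least 3 libraries, removed skeletal genes that were high in N136 and N138 only. Myh8 had 0, 767 and 1620 counts in N129, N136 and N138, against 0, 8 and 2 counts in C7, C8 and C9. Myh4, the fastest chain (type IIb), had 0, 68 and 160 counts in the silicosis libraries, against 0, 0 and 0 counts in the controls, at least 26.8-fold higher with a floor of 3 counts in each control library. Mybpc1, slow myosin binding protein C, had 2, 68 and 153 counts in N129, N136 and N138, against 2, 0 and 3 counts in C7, C8 and C9. N129 was at or near the control level for all 3 genes. With no filter 10 of the 20 skeletal sarcomere genes were called higher, and 12 by DESeq2. The list holds genes seen to be high in N136 and N138 only, so these counts are not support for a difference. The shares of all mRNAs called under these settings are not given here.

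Of 11 tested skeletal calcium release and excitation genes 2 were called higher by edgeR, a share near the 15.3% of all mRNAs, and 6 by DESeq2 or without N129, 1 without N136 or C8, and 1 under limma-voom. Atp2a1, the calcium pump of fast fibres, had 2.35, 8.05 and 18.6 CPM in N129, N136 and N138, against 1.66, 1.79 and 2.17 CPM in C7, C8 and C9 (edgeR adjusted p = 0.0165), a call that ended without C7, C8 or C9, under limma-voom and with N129 alone. Cacng1, a subunit of the skeletal calcium channel, had 10, 18 and 32 counts in the silicosis libraries, against 8, 0 and 1 counts in the controls. Its adjusted p by edgeR was 0.0491, and the call ended without N129, N136, N138, C8 or C9, with no filter and with DESeq2 size factors. No control library reached the filter's minimum for Cacng1, so it was tested only because it was high in silicosis. All 9 listed myogenic regulators and satellite cell genes were under the filter, and 1 was called higher by edgeR with no filter and 1 by DESeq2.

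**Figure D3:**
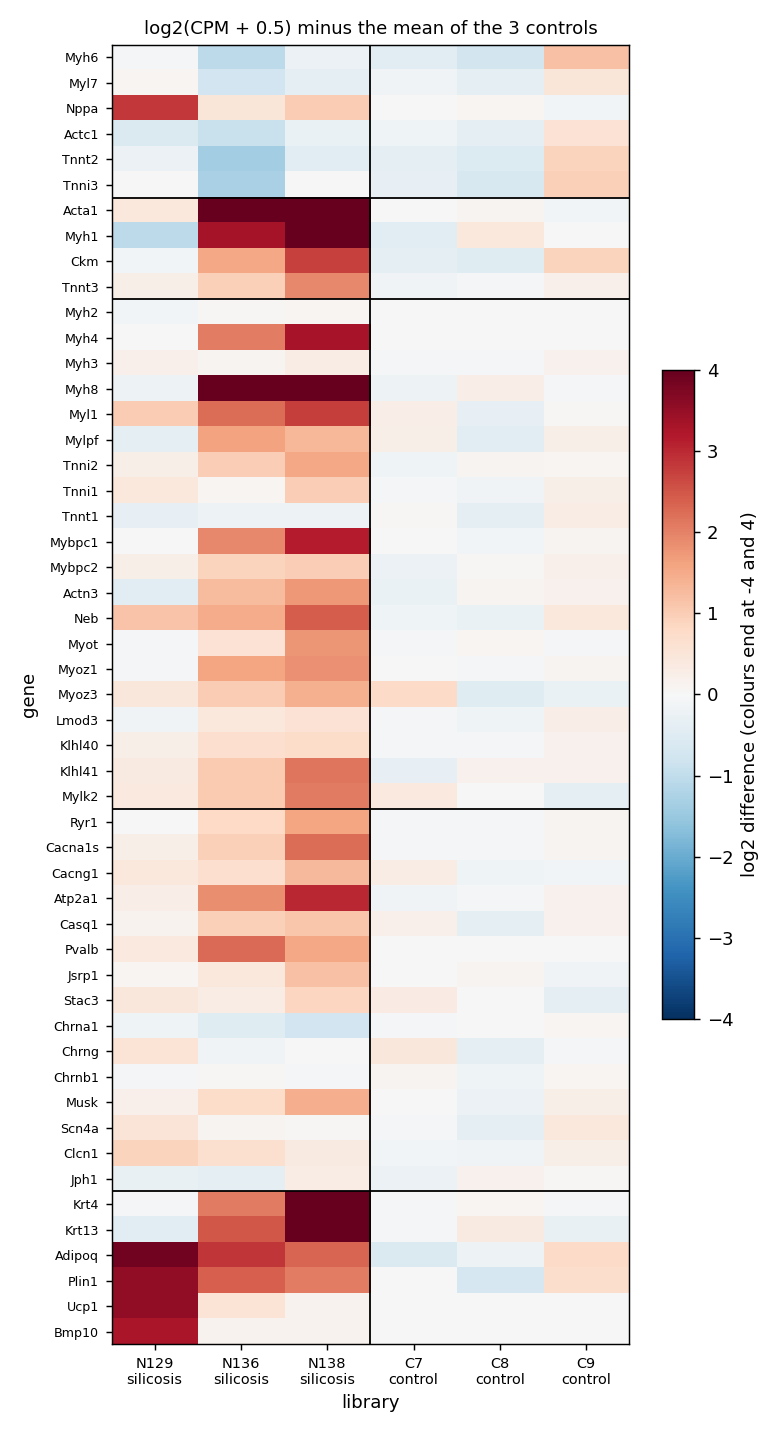
Heat map of skeletal muscle genes and of 6 genes of other tissues (rows) in each silicosis (left) and control (right) library, below the 10 genes described. Colour is log2(CPM + 0.5) minus the mean of the 3 controls, ending at -4 and 4, and the rows of other tissues were chosen after their values were seen. Myh8 held 767 counts in N136 and 1620 in N138 but 0 in N129, whereas Ucp1 and Bmp10 were high in N129.

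Of 15 other tested genes of the cardiac sarcomere, 3 were higher and 2 lower by edgeR, near the shares of 15.3% higher and 16.5% lower over all mRNAs. Myh7, the slow beta myosin heavy chain, fell to 9.99, 6.996 and 17.1 CPM in N129, N136 and N138, against 26.5, 30.0 and 27.3 CPM in C7, C8 and C9 (log2 fold change -1.30, SE 0.27, adjusted p = 0.00694 by edgeR). Its groups did not overlap, C9 was not high, and the call held whichever library was left out. It shares 22.2% of its windows with Myh6, a gene that was highest in C9.

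Mybpc3, cardiac myosin binding protein C, and Fhod3, which assembles actin in cardiac sarcomeres, were higher by 0.89 and 0.96 on the log2 scale, and Nebl, the nebulin-like Z-disc protein nebulette, fell by 0.33. The calls of all 3 ended without 2 to 4 single libraries, N129 and C8 among them for each. Myl3, the ventricular and slow skeletal light chain, had 0.391, 3.99 and 11.4 CPM in N129, N136 and N138, against 0.571, 0.431 and 1.02 CPM in C7, C8 and C9. It was high in the libraries with high skeletal genes and not in C9. Its log2 fold change was 2.96 (edgeR adjusted p = 0.0372) with all libraries and -0.79 with N129 alone against the controls, and the call ended without any 1 of N136, N138, C7, C8 or C9, under limma-voom and with robust dispersions. Myl4, the atrial light chain, had 20.8, 12.6 and 16.2 CPM in N129, N136 and N138, against 9.29, 7.16 and 16.2 CPM in C7, C8 and C9, and did not pass the test (log2 fold change 0.61, adjusted p = 0.148 by edgeR).

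Of 16 genes of cardiac calcium handling and excitation, 1 was higher and 2 were lower, no more than the 15.3% and 16.5% over all mRNAs. Atp2a2, the calcium pump of heart, slow muscle and many other cells, rose by 0.49 on the log2 scale (adjusted p = 0.00368 by edgeR). Gja5, an atrial and arterial connexin, and Jph2, which ties the cell membrane to the calcium store, fell by 0.49 and 0.43. Without C7 the calls of both ended, and that of Jph2 also without N129. Of 9 tested cardiac regulators 2 were lower, beside the same 16.5%. Tbx5 fell by 1.01 on the log2 scale, with 37.999 to 43.1 CPM in silicosis libraries and 76.0 to 86.3 CPM in control libraries (adjusted p = 0.000165 by edgeR), and lung mesenchyme also expresses it. Gata6, which lung epithelium also expresses, fell by 0.41, a call that ended without N129 or C8.

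Of 19 genes common to both muscle types 1 was higher and 1 lower by edgeR, under the shares of 15.3% and 16.5% over all mRNAs. The higher one was Smpx, a small costamere protein, by 2.57 on the log2 scale (adjusted p = 0.00662 by edgeR). The lower one was Des, desmin, with a log2 fold change of -0.41 (adjusted p = 0.00591 by edgeR). Both calls held whichever single library was left out, and that of Smpx ended with N129 alone. Of 15 muscle energy genes 1 was higher and 1 lower, also under these shares. Eno3, muscle enolase, was higher by 0.88 (edgeR adjusted p = 0.00717). Cox6a2, the muscle form of a cytochrome oxidase subunit, fell by 0.90, a call that ended without N136, C8 or C9. With N129 alone against the controls the calls of Nebl, Gja5, Jph2, Gata6 and Cox6a2 also ended, in a fit with 1 silicosis library. The log2 fold changes were then -0.33 for Nebl, -0.47 for Jph2 and -0.48 for Gata6, close to those with all libraries. For Gja5 and Cox6a2 they were smaller in size, at -0.33 and -0.62.

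**Figure D4:**
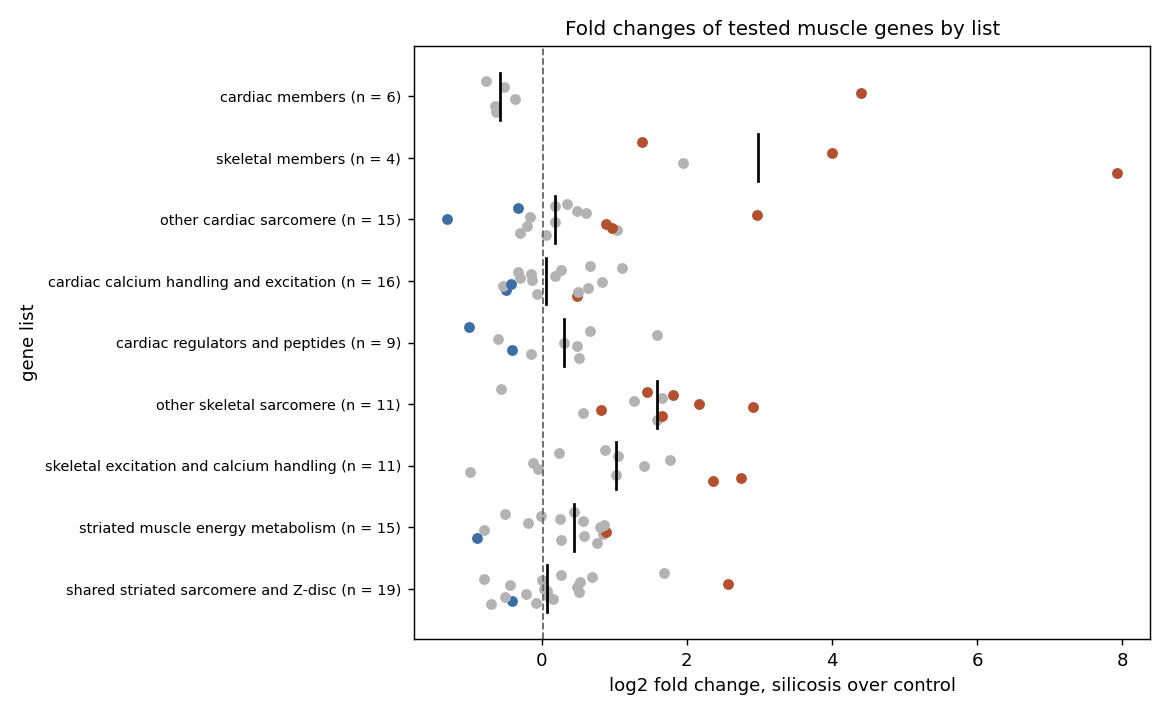
Log2 fold changes, silicosis over control, of the tested genes of each muscle list (points; brown called higher, blue called lower, grey not called by edgeR), with the list's median (bar) and the median of all tested mRNAs (dashed line). The other skeletal sarcomere genes had a median of 1.59 and the other cardiac sarcomere genes of 0.19, beside 0.025 over all tested mRNAs.

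Markers of other tissues moved with the muscle genes in part. Of 9 smooth muscle genes 7 were lower by edgeR, beside 16.5% of all mRNAs. These 9 genes summed to 729 to 822 CPM in silicosis libraries and 1224 to 1503 CPM in control libraries. Of 5 tested adipocyte genes 4 were higher, beside 15.3% of all mRNAs. The 7 listed adipocyte genes summed to 19.6 to 58.3 CPM in silicosis libraries and 10.9 to 16.6 CPM in control libraries, and the highest was N129. Cidec, the tested gene that was not called, held 8.45 to 11.3 CPM in the control libraries. The 7 listed genes of squamous epithelium, which lines the oesophagus, summed to 6.96, 12.3 and 35.1 CPM in N129, N136 and N138. In C7, C8 and C9 they summed to 11.3, 8.42 and 8.46 CPM. Of 5 tested 1 was higher and 1 lower, beside the same 15.3% and 16.5% of all mRNAs. The higher one, Krt13, a call that ended without N138, C7, C8 or C9 and under the DESeq2 Wald test, limma-voom and robust dispersions, had 0, 145 and 468 counts in the silicosis libraries, against 6, 16 and 2 counts in the controls, and Krt4 of the same list 0, 74 and 529 counts, against 0, 2 and 0 counts. Both were high in N136 and N138 and at 0 in N129, as were Myh8 and Myh4. Sbsn and Krt10, the most expressed tested genes of the list, did not follow this order. Sbsn, the lower one, had 3.08, 2.98 and 3.23 CPM in N129, N136 and N138, below every control (log2 fold change -0.90). Krt10 had 3.21, 3.58 and 2.75 CPM in N129, N136 and N138, against 3.40, 2.42 and 2.06 CPM in C7, C8 and C9. The part of these tissues in the skeletal gene levels was not tested.

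N129 differed from N136 and N138 in other tissue genes. Bmp10, a peptide of atrial muscle, had 167, 2 and 2 counts in N129, N136 and N138, against 0, 0 and 0 counts in C7, C8 and C9, at least 19.8-fold higher with the floor of 3 counts. Ucp1, the uncoupling protein of brown fat, had 205, 10 and 2 counts in the silicosis libraries, against 0, 0 and 0 counts in the controls, at least 25.1-fold higher. Both rested on N129, the library in which Nppa was highest. The 7 listed atrial genes, Nppa and Bmp10 among them, summed to 49.9, 25.7 and 34.5 CPM in N129, N136 and N138. In C7, C8 and C9 they summed to 21.1, 17.7 and 39.8 CPM. Of these 7 genes, 4 were highest in N129, 2 in N138 and 1, Myl7, in C9, beside 2232 of 15808 tested mRNAs that were highest in N129. Nppa and Bmp10 were among the 4. Sln, counted under N138, was at 5.45 CPM in both N129 and N138. Of 6 tested 1, Nppa, was called higher by edgeR, beside 15.3% of all mRNAs. The ventricular light chain Myl2 had 0, 11 and 2 counts in the silicosis libraries, against 4, 0 and 0 counts in the controls, and was near 0 throughout. The 4 listed ventricular genes summed to 11.2, 11.8 and 29.7 CPM in N129, N136 and N138, against 27.7, 30.9 and 29.4 CPM in C7, C8 and C9, mostly Myh7. Of 3 tested 1 was higher (Myl3) and 1 lower (Myh7) by edgeR, beside 15.3% and 16.5% of all mRNAs, too few genes to compare with these shares. The part of atrial tissue and brown fat in the Nppa level was not tested.

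Over the 6 libraries, the mRNAs most like the mean skeletal profile among 268 variable ones were Atp2a1 (Pearson r 0.988), Myl3 (0.984), Krt13 (0.976), Myl1 (0.919) and Neb (0.865). Xirp2 (0.843), Slc22a4 (0.815) and Slc9b2 (0.802) came next. Slc22a4 and Slc9b2 are in none of the muscle lists, and all silicosis libraries, N129 included, lay above all controls for both. The most like the mean cardiac profile was Lars2 with an r of 0.699, which rests on C9, and the next was Egr1 at 0.572. That profile includes Nppa, whose order of libraries differed from the other 5 cardiac genes. A ranking with those 5 alone and no minimum on the spread, chosen after seeing the data, had 14440 candidate mRNAs. Trp53bp1 at 0.991 and Ccdc171 at 0.989 came first, and all 8 ranked genes were above 0.98. Trp53bp1 ran only from 67.4 CPM in N136 to 80.5 CPM in C9. These are descriptions over 6 points that share N136 and N138, or C9, as the extremes, and 8 genes were ranked for each profile.

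Among lncRNAs, 3.28% of 3320 were higher in silicosis and 2.5% lower by edgeR. H19, an imprinted transcript abundant in embryonic tissue and in skeletal muscle, had 36, 177 and 542 counts in N129, N136 and N138, against 39, 47 and 60 counts in C7, C8 and C9. It was high in the libraries with high skeletal genes, with N129 below the controls, and its log2 fold change was 2.24 (SE 0.57, edgeR adjusted p = 0.0273), or -0.53 with N129 alone. The call ended without N138, C7, C8 or C9, and also under the DESeq2 Wald test, limma-voom and robust dispersions. Carmn, a transcript of smooth muscle and heart, fell by 1.05 on the log2 scale (adjusted p = 0.00429 by edgeR), and this call held whichever library was left out.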

How the data were processed

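The authors' deposited tables hold raw counts per mRNA and lncRNA in 6 lung libraries, 3 silicosis and 3 control, grouped by the treatment label. The submitters' processing notes name GRCm39 and, with no role or order, DESeq2 1.36.0, featureCounts 2.0.0, Bowtie2, HISAT2 and Trimmomatic 0.39. The authors' deposited comparison table gives log2 fold changes and adjusted p-values, per the file headers, and only its log2 value of Actc1 is printed.

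Counts of each class were filtered by filterByExpr, scaled by TMM and tested two-sided with the quasi-likelihood F test of edgeR 4.0.16 in R 4.3.3, with p-values adjusted by Benjamini and Hochberg's method and called under 0.05. The SE is the size of the log2 fold change divided by the square root of F. CPM are counts per TMM-scaled total, in each table on its own. Lengths for CPM per kb are of the longest protein-coding GENCODE M21 transcript, a choice made after a longer retained-intron form of Tnnt2 was seen. Windows of 50 bases were taken every 5 bases. Libraries of a group were distinct, with chi-square per degree of freedom of 15 to 79 between pairs. Scripts were tested on simulated data.

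The muscle genes, the lists and the naming rule were chosen with earlier results of these data known. The rule names the 10 muscle genes, the 3 most expressed and the highest and lowest called genes of each muscle list, the 2 most expressed of each tissue list, and the 8 genes most like each profile by Pearson r of log2(CPM + 0.5), with mean CPM of at least 1 and an SD of at least 1. Other genes named were singled out after their values were seen. The circRNA table pairs no circRNA with a host gene and was not used. Alternatives were DESeq2 1.42.0 size factors and test, no filter, limma 3.58.1 voom and each library left out, and, chosen after seeing the data, N129 alone against the controls (assumed to vary like them) and robust dispersions.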

Additional observations from a re-analysis of the deposited data

How the results depend on the processing

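Of 480 gene values over the alternatives, 358 kept their direction and side of the threshold, 109 lost the call, 5 gained it and 8 reversed. With N129 alone against the controls, chosen after seeing the data, log2 fold changes were -0.34 for Ckm, -3.63 for Myh1, -0.53 for H19, -5.99 for Krt13, -0.79 for Myl3 and 0.034 for Myl7. Without C9 they were 0.19 for Myh6 and 0.16 for Tnni3, and over the libraries left out they ranged from -0.97 to 0.19 for Myh6 and from -0.81 to 0.16 for Tnni3. With N129 alone, 1487 mRNAs were higher and 1708 lower and 47 lncRNAs lower. The count of higher genes was then 0 for the skeletal genes described, 1 for the other skeletal sarcomere, 0 for skeletal excitation, 3 for cardiac regulators, 0 for shared Z-disc genes and 3 for energy genes, and the count of lower genes 0 for cardiac calcium handling, 1 for cardiac regulators, 1 for the other cardiac sarcomere and 2 for shared Z-disc genes. DESeq2 gave 12 higher for the other skeletal sarcomere, 6 for skeletal excitation, 2 for cardiac calcium handling, 1 for cardiac regulators, 1 for myogenic genes and 2 for shared Z-disc genes, and 1 lower for the cardiac genes described, 2 for shared Z-disc genes and 3 for energy genes. By limma-voom the higher counts were 0 for the cardiac and 0 for the skeletal genes described, 2 for the other skeletal sarcomere, 1 for skeletal excitation and 2 for cardiac calcium handling, and 2 energy genes were lower. No filter gave 10 for the other skeletal sarcomere, 1 for cardiac regulators, 1 for myogenic genes, 173 higher lncRNAs and 2 lower energy genes. Robust dispersions gave 1 skeletal gene described as higher and 2 lower energy genes, and DESeq2 size factors 1 higher skeletal excitation gene and 2 lower energy genes.

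Leaving out 1 library gave, as lowest and highest counts, 1617 to 2580 higher and 1867 to 2633 lower mRNAs, and 43 to 143 higher and 26 to 104 lower lncRNAs. Higher and lower counts were 0 to 1 and 0 to 1 for the cardiac genes described, 1 to 4 higher for the skeletal ones, 0 to 4 and 1 to 2 for the other cardiac sarcomere, 1 to 3 and 0 to 2 for cardiac calcium handling, 0 to 1 and 1 to 3 for cardiac regulators, 2 to 13 higher for the other skeletal sarcomere, 1 to 6 higher for skeletal excitation, 1 to 2 and 0 to 3 for energy genes, and 1 to 5 and 1 to 2 for shared Z-disc genes. Summed levels were 30.9 to 86.1 CPM in silicosis and 3.62 to 5.08 CPM in control for the skeletal genes, and 116 to 152 CPM in silicosis and 131 to 242 CPM in control for the cardiac genes. The cause of these shifts was not tested. Genes with few counts in most libraries, Nppa and Myh1 among them, had wide errors. No paired analysis was possible because the replicate numbers of the groups are not shared.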
